A study of Mus musculus with 10 samples.

Results

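The 10 genes described here are the tumour suppressor Trp53, its ubiquitin ligase Mdm2, the death receptor Fas, and 7 genes that p53 is known to activate: Bax, Bbc3, Pmaip1, Ccng1, Zmat3, Gadd45a and Btg2. They were found as the non-control probes that carry one of these names in the scanner files, which gave 10 probes, 1 per gene, among 55681. The cells were C2C12 myoblasts, a mouse skeletal muscle line that grows as single cells and can fuse into myotubes. They were kept below confluence in medium with fetal bovine serum and transfected by lipofection with a mimic of miR-27a-3p in 6 samples and a scrambled sequence in 4, both at 150 nM, and collected after 72 h. The mimic is a synthetic RNA that supplies the mature microRNA. Untransfected cells were not analysed here, so all differences are mimic minus scrambled sequence and lipofection was common to both groups. The study estimated that 60% of the cells took up the RNA, so each sample mixes cells that did with cells that did not.

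p53 is a transcription factor that is kept low by Mdm2, which tags it for degradation, and that accumulates after DNA damage and other stress. It then switches on genes that stop the cell cycle, repair DNA or start apoptosis, and Mdm2 itself is among them, which closes a feedback loop. Its activity is set largely at the protein level, which RNA arrays do not measure. Fas is a membrane receptor of the tumour necrosis factor receptor family whose binding by Fas ligand recruits Fadd and activates caspase-8, and Fas is also transcribed by p53. In myoblasts, arrest of the cell cycle through Cdkn1a accompanies the start of differentiation.

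The sequence delivered to the cells is shown with its seed, bases 2 to 8, in capitals, because the seed decides which transcripts a microRNA pairs with. The natural relative miR-27b-3p has the same seed and differs at 1 base outside it. Both are RefSeq sequences (GRCm38.p6).
mmu-miR-27a-3p: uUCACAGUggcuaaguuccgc
mmu-miR-27b-3p: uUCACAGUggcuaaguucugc
The DNA letters that pair with this seed, ACTGTGA, occurred in none of the 10 probes of these genes and in 0.817% of all probes, read on the transcript strand. The shorter CTGTGA, which lies within it, occurred in 1 of the 10, that of Pmaip1, and in 3.13% of all probes. A probe covers 60 bases of its transcript, and the rest was not searched.

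The promoters of several of these genes hold the p53 half-site, the 10-base element to which p53 binds in pairs. The RefSeq promoter table (GRCm38.p6) has windows from 250 bases before to 50 after the start site for 8 of the 10 genes. An exact p53 half-site, whose pattern reads the same on both strands, lay in the windows of 5 of these 8 genes, against 9.55% of the 27025 genes with a window. They are shown with the matched letters in capitals, since p53 targets are often searched for by this element.
Trp53, chr11:69580269-69580308, plus strand: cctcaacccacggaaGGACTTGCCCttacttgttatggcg
Mdm2, chr10:117710920-117710959, minus strand: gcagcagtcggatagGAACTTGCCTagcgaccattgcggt
Bax, chr7:45467075-45467114, minus strand: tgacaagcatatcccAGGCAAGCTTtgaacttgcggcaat
Ccng1, chr11:40755447-40755486, minus strand: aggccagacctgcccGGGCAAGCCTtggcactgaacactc
Gadd45a, chr6:67037423-67037462, minus strand: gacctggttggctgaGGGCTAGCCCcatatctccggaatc
The half-sites began 75, 186, 201, 185 and 40 bases before the start sites of Trp53, Mdm2, Bax, Ccng1 and Gadd45a. The windows of Fas, Bbc3 and Btg2 held no exact half-site. A match in letters is a description of the sequence and no measurement of binding.

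Every array position was scanned 2 times, so the 10 files reduce to 3 mimic arrays and 2 scrambled arrays, each the average of its scans. Mimic arrays 1, 2 and 3 are replicates 1 and 4, 2 and 5, and 3 and 6, and scrambled arrays 1 and 2 are replicates 1 and 3, and 2 and 4. The labels describe every replicate as an independent transfection, which cannot be squared with 2 replicates on 1 position from the sources used here. Of 59305 non-control spots, 27% to 35.3% were well above background in a file. A level is the log2 signal minus the file's 75th percentile of detected probes, so 0 is a bright probe, and levels of different probes are not comparable. The SD was larger on the scrambled arrays than on the mimic arrays for 6 of the 10 genes, and values without either scrambled array are given where they matter. Of 9 myoblast markers, 7 were detected well enough to be tested and 0 were called by limma. At an unadjusted p under 0.05 there were 4, all lower after the mimic, against 25.3% of all genes. Myf5 and Pax7 were not tested. Of 14 markers of leukocytes, endothelium, epithelium, liver, fat and nerve, 11 were not detected well enough to be tested, among them Ptprc, Pecam1, Epcam and Alb. Of the other 3, Tubb3 fell by 0.75 (limma adjusted p = 0.0385). The leukocyte markers Cd68 and Cd3e stood at 0.53 and -0.26 (limma adjusted p = 0.095 and 0.394). Cd68 was above background in all 10 files and higher on every mimic array.

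Fas was the only one of the 10 genes to pass the test, and it was higher after the mimic. A gene was tested if its probe was above background in at least 4 files, and Fas met this through the mimic files alone, the group in which it was high. With no such filter its limma adjusted p was 0.18, and with the flag required in all files it was not tested. Across all 13138 genes tested with limma, 5.15% were called at an adjusted p under 0.05, and 1 of the 10 members was. At an unadjusted p under 0.05 there were 2 members, Fas and Bbc3, against 25.3% of all genes. By direction, 2.8% of all genes were called higher and 2.34% lower, against 1 and 0 of the members. The members had a median difference of 0.13 (log2), beside -0.05 for all genes, and ran from -0.79 to 1.60. The arrays of the groups did not overlap for 5 of the 10 genes, against 45.6% of all genes. Mdm2, Fas, Bbc3 and Zmat3, 4 of the 10, were higher on every mimic array than on either scrambled array, against 19.8% of all genes. Btg2, 1 of the 10, was lower on every mimic array, against 25.8% of all genes.

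**Figure D1:**
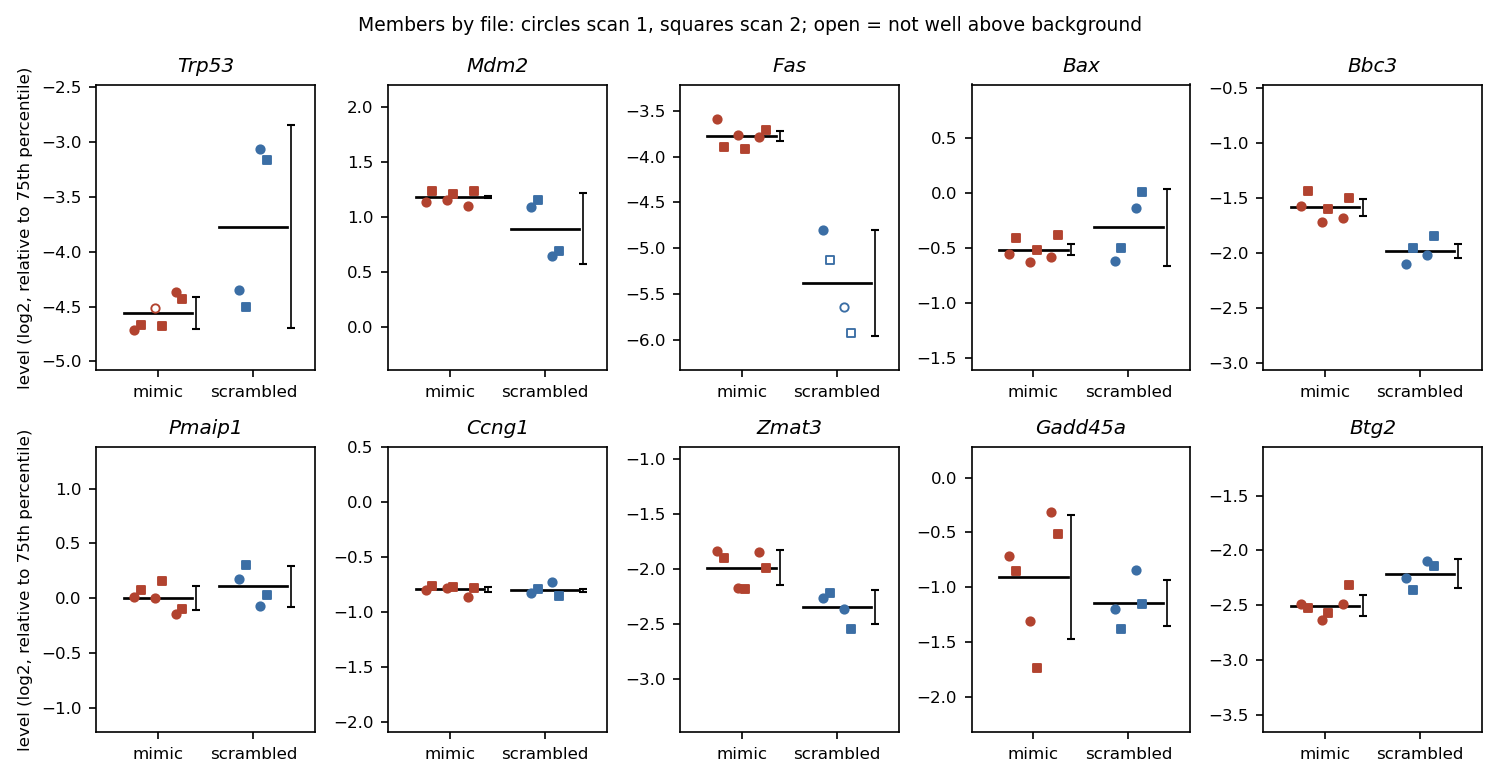
Level of each gene in every file (log2, scaled to the 75th percentile of detected probes), mimic left and scrambled right. Circles are the first scan and squares the second, open symbols were not well above background, bars are means over arrays and error bars are SD over 3 mimic and 2 scrambled arrays. Fas separates the groups, with 3 of 4 scrambled files not above background, and Trp53 is high on scrambled array 2 only.

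The regulators Trp53 and Mdm2 did not pass the test in either direction. The Trp53 probe (mm9 chr11:69404204-69404263) gave levels of -4.69, -4.59 and -4.40 on the mimic arrays, against -4.43 and -3.12 on the scrambled arrays. Only scrambled array 2 stood high, in both of its scans, and scrambled array 1 lay among the mimic arrays. The difference was -0.79 ± 0.38 (SE, log2, 95% interval -1.71 to 0.14, limma adjusted p = 0.252). It was -1.44 without scrambled array 1, past the threshold (limma adjusted p = 0.014), and -0.13 without scrambled array 2. The signal was dim, well above background in 5 of 6 mimic files and 4 of 4 scrambled files.

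Mdm2, which both restrains p53 and is transcribed by it, was bright in all 10 files. Its levels were 1.19, 1.18 and 1.17 on the mimic arrays, against 1.12 and 0.66 on the scrambled arrays. The mimic arrays agreed within 0.02 of each other and were all above the scrambled ones, by little in the case of scrambled array 1. The difference was 0.29 ± 0.18 (SE, log2, 95% interval -0.14 to 0.72, limma adjusted p = 0.339). Leaving out scrambled array 1 gave 0.52, and leaving out scrambled array 2 gave 0.06. Its relative Mdm4, which binds p53 and blocks its activity without degrading it, stood at 0.58 ± 0.20 (limma adjusted p = 0.154). It passed on all 10 files with a term for the scan and positions as random blocks (limma adjusted p = 0.0491). That fit enters both scans of each array and called 11.2% of all genes, against 5.15% in the main fit.

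Fas rose. Its probe (mm9 chr19:34402164-34402223, plus strand, starting at base 1389 of transcript NM_007987) had levels of -3.74, -3.84 and -3.75 on the mimic arrays, against -4.97 and -5.78 on the scrambled arrays. The mimic arrays lay close together, the scrambled arrays lay 0.82 apart, and the groups did not overlap. In unscaled signal the 6 mimic files gave 141 to 275 and the 4 scrambled files 31.4 to 96.1. The mean level was -3.78 ± 0.05 (SD, n = 3) after the mimic and -5.38 ± 0.58 (SD, n = 2) after the scrambled sequence. The difference was 1.60 ± 0.25 (SE, log2), or 3.03-fold, with a 95% interval of 0.98 to 2.22 and a limma adjusted p = 0.0279. In bulk RNA, more cells with the transcript and more transcript per cell cannot be told apart.

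The size of the rise varied with the processing, and Fas entered the test only through the mimic files. All 6 mimic files were well above background for Fas, against 1 of the 4 scrambled files, so the scrambled level rests mostly on signals that were not. With the scrambled arrays raised to the lowest level of any probe well above background, a description chosen after seeing the data, the difference was 1.07, or 2.10-fold. With normexp background correction it was 0.64, or 1.56-fold (limma adjusted p = 0.0437). In the first and the second scan alone it was 1.51 and 1.69 (limma adjusted p = 0.0414 and 0.0259). Leaving out scrambled array 1 gave 2.01 and leaving out scrambled array 2 gave 1.19. Without mimic array 1, 2 or 3 it was 1.58, 1.63 and 1.58 and the call was lost (limma adjusted p = 0.127, 0.111 and 0.0951).

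**Figure D2:**
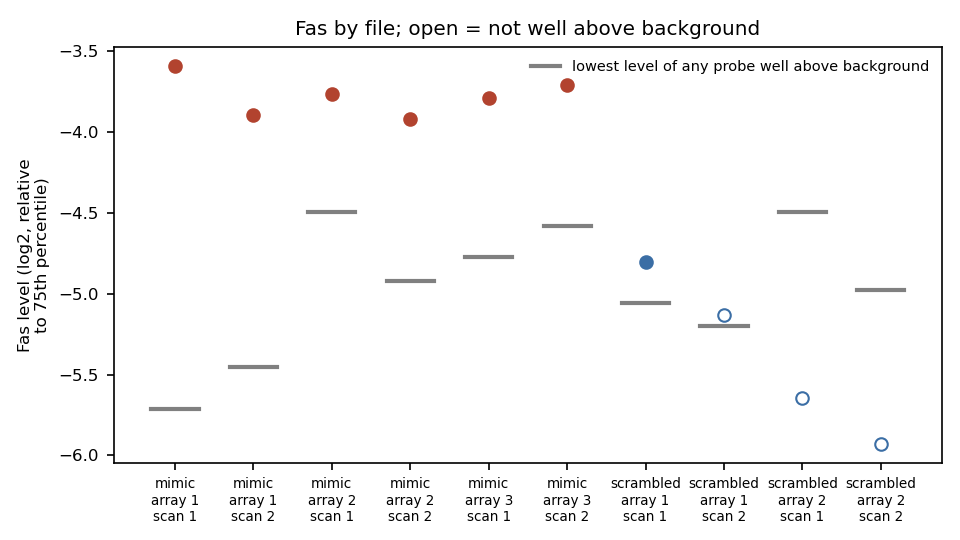
Level of Fas in each file (log2, scaled to the 75th percentile of detected probes), mimic files left and scrambled files right, beside the lowest level of any probe well above background in that file (grey bars). The 6 mimic files lie between -3.92 and -3.59 and the 4 scrambled files between -5.93 and -4.80, with 1 of the 4 marked as well above background.

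The 3 members that belong to the BCL2 family, which controls the opening of the outer mitochondrial membrane in apoptosis, did not pass the test. Bbc3, the BH3-only protein also called Puma, had levels of -1.50, -1.66 and -1.59 on the mimic arrays, against -2.03 and -1.93 on the scrambled arrays. The groups did not overlap and each was tight, and the difference was 0.40 ± 0.14 (SE, log2, 95% interval 0.06 to 0.73). It missed the threshold (limma adjusted p = 0.149). In the fit with the scan term and random positions, which called 11.2% of all genes, the difference passed (limma adjusted p = 0.0452). After Fas, it was the member with the smallest p.

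Bax and Pmaip1 overlapped between the groups. Bax, a pore-forming effector, had levels of -0.49, -0.58 and -0.48 on the mimic arrays, against -0.56 and -0.07 on the scrambled arrays. Scrambled array 1 lay within the mimic range, and scrambled array 2 lay above it. The difference was -0.20 ± 0.19 (95% interval -0.66 to 0.25, limma adjusted p = 0.517). Leaving out scrambled array 1 gave -0.45, and leaving out scrambled array 2 gave 0.05. Pmaip1, the BH3-only protein also called Noxa, had levels of 0.05, 0.08 and -0.12 on the mimic arrays, against 0.24 and -0.02 on the scrambled arrays. The difference of -0.11 ± 0.16 (95% interval -0.49 to 0.28, limma adjusted p = 0.681) was smaller than the spread within the scrambled group, and it was 0.05 with the percentile taken over all probes.

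The growth-arrest genes Ccng1, Gadd45a and Btg2 showed 3 different patterns, none past the threshold. Ccng1, which encodes cyclin G1, a partner of protein phosphatase 2A, had levels of -0.78, -0.77 and -0.82 on the mimic arrays, against -0.81 and -0.79 on the scrambled arrays. All 5 arrays lay within 0.05 of each other, the tightest agreement among the members. The difference was 0.01 ± 0.13 (SE, log2), and its 95% interval of -0.31 to 0.32 leaves room for modest changes in either direction (limma adjusted p = 0.971).

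Gadd45a, a stress-induced protein that binds kinases and the replication clamp PCNA, was the most variable member within the mimic group. Its levels were -0.78, -1.52 and -0.41 on mimic arrays 1, 2 and 3, against -1.29 and -1.0 on the scrambled arrays. Mimic array 2 lay below both scrambled arrays and the other mimic arrays above them, and the 5 arrays kept this order in both scans. The difference was 0.24 ± 0.34 (95% interval -0.58 to 1.07, limma adjusted p = 0.665), and it was 0.55 without mimic array 2 and -0.003 without mimic array 3. Its relatives Gadd45b and Gadd45g stood at 0.19 and 0.05 (limma adjusted p = 0.65 and 0.824).

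Btg2, an antiproliferative protein that recruits the deadenylase which shortens poly(A) tails, was lower on every mimic array. Its levels were -2.50, -2.60 and -2.40 on the mimic arrays, against -2.30 and -2.12 on the scrambled arrays. The groups did not overlap, by a margin of 0.10. The difference was -0.29 ± 0.15 (95% interval -0.65 to 0.07, limma adjusted p = 0.267). Btg1, of the same family, stood at 0.53 ± 0.17, the opposite sign (limma adjusted p = 0.127), and the difference between these 2 probes was not tested. Btg1 passed in the fit with the scan term, which called 11.2% of all genes (limma adjusted p = 0.0399). Without scrambled array 1 or 2 Btg1 stood at 0.73 or 0.33.

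Zmat3, a zinc finger protein that binds RNA and acts downstream of p53, had levels of -1.87, -2.17 and -1.92 on the mimic arrays, against -2.24 and -2.46 on the scrambled arrays. The mimic arrays were all higher, mimic array 2 by 0.07 over scrambled array 1. The difference was 0.36 ± 0.16 (SE, log2, 95% interval -0.04 to 0.76, limma adjusted p = 0.233).

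**Figure D3:**
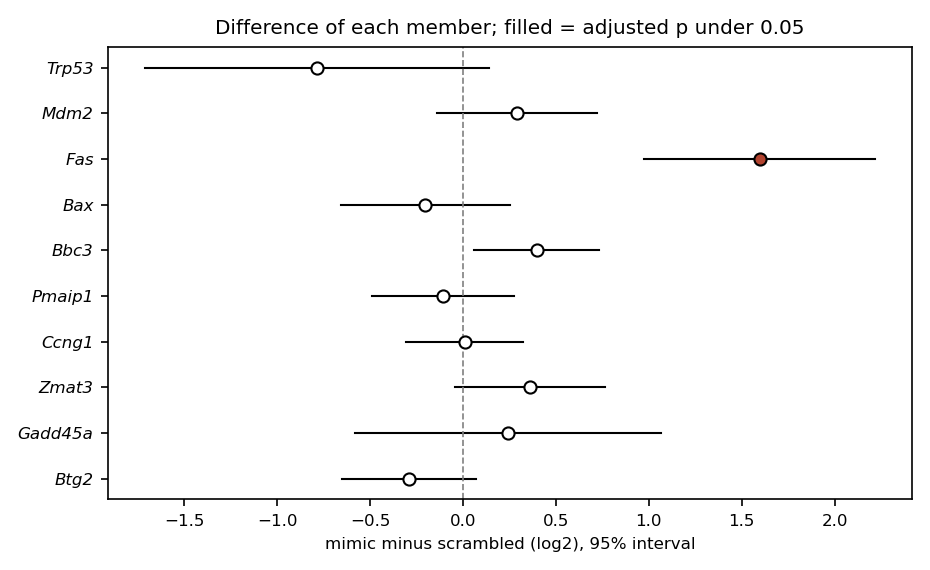
Difference of each member, mimic minus scrambled (log2, points), with 95% intervals from limma (lines). The interval of Fas, 0.98 to 2.22, and that of Bbc3, 0.06 to 0.73, lie above 0, and only Fas (filled) has an adjusted p under 0.05.

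The other genes of the pathway were called at about the share of all genes. Of the 93 tested genes on the pathway lists, members left out, 4 rose and 1 fell, which is 5.38% beside 5.15% of all genes, with a median difference of 0.06. Of 34 tested p53 targets 3 rose, none fell and the other 31 missed the limma threshold, with a median of 0.15. At an unadjusted p under 0.05 there were 13 of the 34, against 25.3% of all genes. Slc19a2, a thiamine transporter, had levels of -2.02, -1.95 and -2.05 on the mimic arrays, against -2.78 and -3.19 on the scrambled arrays, and rose by 0.98 ± 0.17 (limma adjusted p = 0.0361). Perp, a membrane protein of desmosomes and a p53 effector, was detected above background in 4 of 6 mimic files and 0 of 4 scrambled files. The fitted difference was 2.44 (limma adjusted p = 0.00703, measured means -4.26 and -6.70 in mimic and scrambled arrays). With each scrambled array raised to the lowest level of any probe well above background, it was 1.60-fold. That level is no strict upper limit for a probe without the flag. Like Fas, Perp entered the test only through the group in which it was high, with 4 files the least that the filter allowed, and its limma adjusted p was 0.0697 with no filter.

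Cdkn1a, the cyclin-dependent kinase inhibitor p21 and the best known arrest gene under p53, did not pass the test and lay lower after the mimic. Its levels were 0.79, 0.89 and 0.92 on the mimic arrays, against 1.39 and 2.13 on the scrambled arrays. The mimic arrays were all lower, and the difference of -0.89 ± 0.24 missed the threshold (limma adjusted p = 0.0918). In the fit with the scan term and random positions, which called 11.2% of all genes, it passed (limma adjusted p = 0.0143). It was -1.26 without scrambled array 1 and past the threshold (limma adjusted p = 0.0126), and -0.53 without scrambled array 2.

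Of 16 tested regulators of p53, 1 rose, 1 fell and 14 did not pass, which is 12.5% called beside 5.15% of all genes. At an unadjusted p under 0.05 there were 3, against 25.3% of all genes, and the median was 0.05. Rchy1, a ubiquitin ligase for p53 also called Pirh2, had levels of -2.34, -2.42 and -2.31 on the mimic arrays, against -1.56 and -1.50 on the scrambled arrays, and fell by 0.83 ± 0.13 (limma adjusted p = 0.0284). Aurka, a mitotic kinase that can phosphorylate p53 and is also a cell cycle gene, rose by 0.82 ± 0.14 (limma adjusted p = 0.033). Cdkn2a, whose Arf product inhibits Mdm2, was not well above background in any file. The calls of Aurka, Rchy1 and Slc19a2 were lost without any 1 of the mimic arrays (limma adjusted p = 0.116 to 0.187 over these). Perp kept its call without each mimic array, in fits that kept the probe filter it passed through the mimic files alone.

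Of 15 tested genes of death receptor signalling 0 were called by limma, and the median was -0.10. At an unadjusted p under 0.05 there were 4, against 25.3% of all genes. Fasl, the ligand, was not well above background in any of the 10 files. Fadd, the adaptor, stood at -0.48 ± 0.16 and Casp8, the initiator caspase, at -0.53 ± 0.22 (limma adjusted p = 0.142 and 0.195), both lower on every mimic array. Without scrambled array 1 or 2 Casp8 stood at -0.81 or -0.26. Fadd was dim, passing the background flag in 2 of 6 mimic and 3 of 4 scrambled files. Cflar, which encodes the caspase-8 inhibitor c-FLIP, stood at -0.23 ± 0.18 (limma adjusted p = 0.446), with overlapping groups.

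The BCL2 family and apoptosome list had 20 tested genes beside the members, 0 called by limma, and a median of 0.12. At an unadjusted p under 0.05 there were 7, against 25.3% of all genes. The anti-apoptotic genes Bcl2l1 and Mcl1 stood at 0.35 ± 0.14 and 0.12 ± 0.13 (limma adjusted p = 0.183 and 0.582). Bcl2, well above background in 5 of 6 mimic files and 1 of 4 scrambled files, stood at 0.06 ± 0.32 (limma adjusted p = 0.919). Bak1, the effector related to Bax, stood at -0.32 ± 0.23, and Bid, which carries the caspase-8 signal to mitochondria, at -0.57 ± 0.17 (limma adjusted p = 0.41 and 0.112). Bid passed in the fit with the scan term and random positions, which called 11.2% of all genes (limma adjusted p = 0.0369). Without scrambled array 1 or 2 Bid stood at -0.75 or -0.39. Of 11 tested relatives of the members 0 were called by limma, with a median of 0.05. At an unadjusted p under 0.05 there were 3, against 25.3% of all genes. Ccng2, dim in both groups (flagged above background in 1 mimic file and 1 scrambled file), was not tested.

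**Figure D4:**
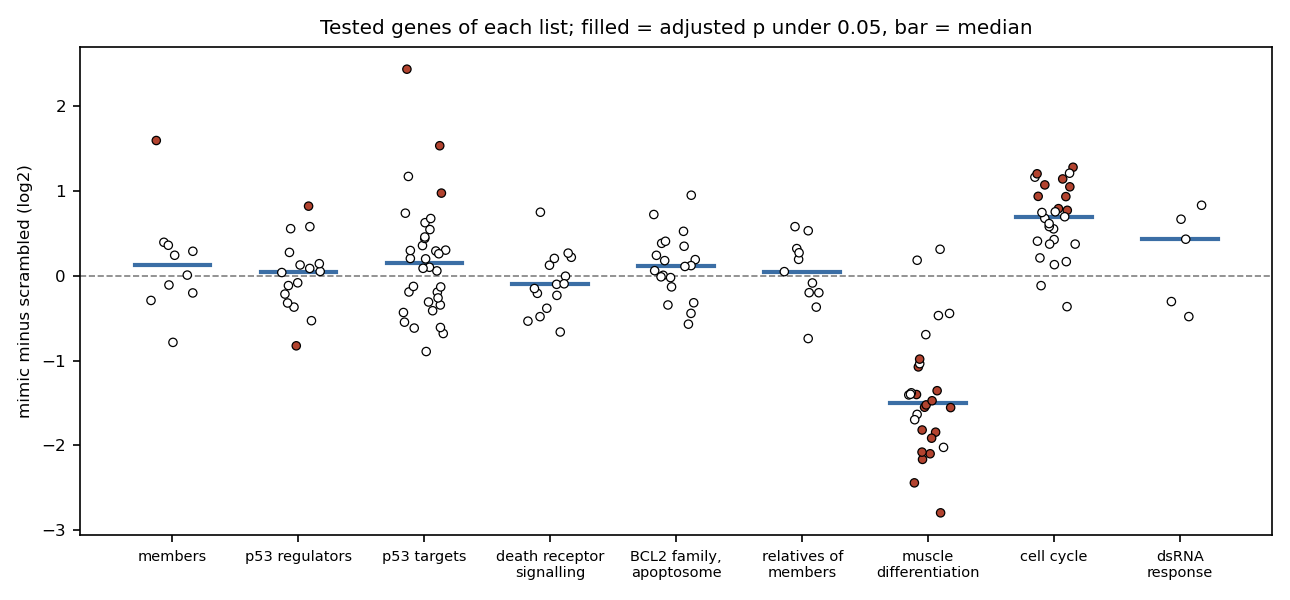
Difference of every tested gene, mimic minus scrambled (log2), for the 10 members, 5 pathway lists and 3 lists of other processes, with filled points for an adjusted p under 0.05 and bars for medians. The members and pathway lists centre between -0.10 and 0.15, while muscle differentiation genes centre at -1.50 and cell cycle genes at 0.70. Perp is plotted at its fitted value of 2.44, which rests on scrambled signals not above background.

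Lists of 2 other processes moved with the groups. Of 28 tested muscle differentiation genes 16 fell and 0 rose under limma, beside 2.34% of all genes called lower. At an unadjusted p under 0.05 there were 22, against 25.3% of all genes. The list averaged -0.87, -0.83 and -1.31 on the mimic arrays, against 0.33 and 0.51 on the scrambled arrays, and the median difference was -1.50. Chrng, a subunit of the embryonic acetylcholine receptor, fell by 2.80 and Mymk, which drives myoblast fusion, by 2.44. Chrng was above background in 4 of 6 mimic files, and its difference was -1.82 with normexp. Without mimic array 1 or 2 both calls were lost, and that of Mymk also without mimic array 3 (limma adjusted p = 0.0522 to 0.0703). Of 27 tested cell cycle genes 9 rose and 0 fell under limma, beside 2.8% of all genes called higher. At an unadjusted p under 0.05 there were 15, against 25.3% of all genes. The list averaged -0.68, -0.62 and -0.74 on the mimic arrays, against -1.28 and -1.40 on the scrambled arrays, with Ccnb2 and Prc1 up by 1.28 and 1.20. Both of these calls were lost without any 1 mimic array (limma adjusted p up to 0.157). Without 1 array or file Ccnb2 ran from 0.98 to 1.58 and Prc1 from 0.99 to 1.42. The part of these shifts in the levels of Fas, Cdkn1a and Aurka was not tested. Of 21 genes of the response to interferon and double-stranded RNA on the array, 5 were tested and 0 called by limma, also at an unadjusted p under 0.05, and Ifnb1, Cxcl10 and Mx1 were not well above background in any file.

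**Figure D5:**
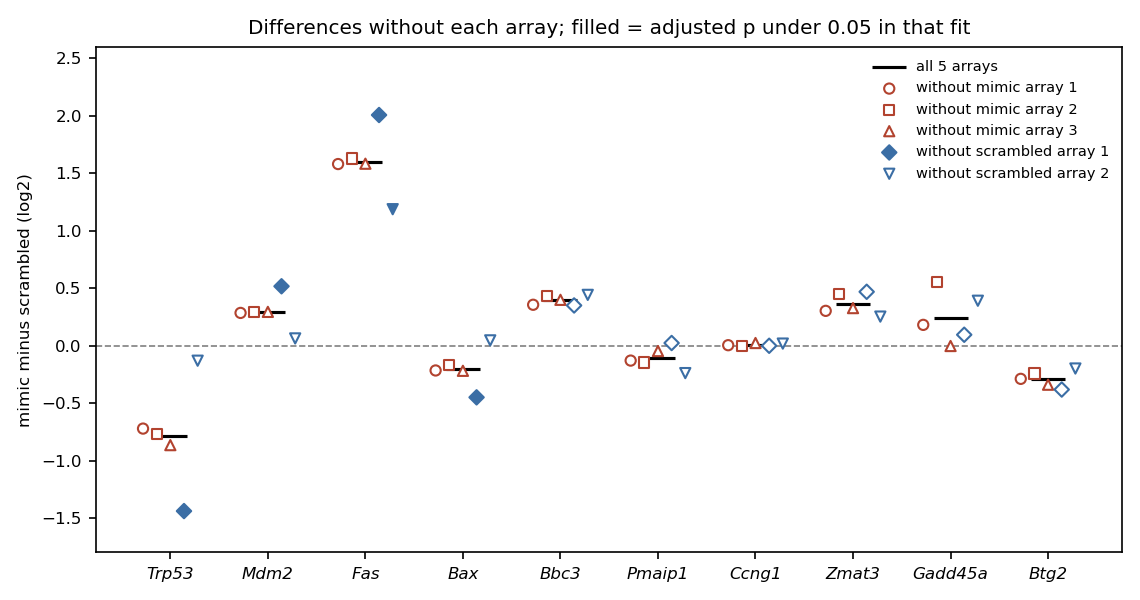
Difference of each member (log2, mimic minus scrambled) with all 5 arrays (black bars) and without each array in turn, with filled symbols for an adjusted p under 0.05 in that fit. Fits without a scrambled array have 1 scrambled array left, and their p-values hold no spread of that group. Fas stays between 1.19 and 2.01, while Trp53 runs from -1.44 without scrambled array 1 to -0.13 without scrambled array 2.

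The 2 scrambled arrays set much of the uncertainty for Trp53, Mdm2 and Bax. A fit without scrambled array 1 or 2 rests on 1 scrambled array. Its p-values hold no spread among scrambled arrays, so the text gives only the differences. With 2 scrambled arrays, the data do not show which is closer to the usual scrambled level.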

How the data were processed

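Per the labels' protocols, RNA was amplified and labelled with Cy3 and hybridised to 1-colour Agilent arrays. In the deposited scanner files each spot has a linear intensity, which per the file headers is the background-subtracted, detrended signal of Agilent Feature Extraction 12.0.0.7 (10.7.3.1 per the submitters' processing notes), with probe positions on mm9. A deposited value table of intensity, whose normalisation is not given in the sources used here, served as an alternative only.

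The 10 files, on 1 slide, came from 5 array positions scanned 2 times. Files of 1 position shared 24 to 81 non-uniform spots, against 0 or 1 for other pairs, and were averaged as 1 array. Control and outlier spots were left out, spots of a probe averaged in log2, and the 75th percentile of each file subtracted, taken over the 13029 probes that passed the background flag in all files. Probes well above background in at least 4 files were kept (16786 of 55681), with the brightest per gene representing it, named through RefSeq (GRCm38.p6) where matched. Values missing on an array took 50 genes out, which left 13138.

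The fit used lmFit and eBayes of limma 3.58.1 (R 4.3.3), tested on simulated data, with Benjamini-Hochberg adjustment over 13138 genes and a threshold of 0.05. Intervals are at 95% from the same fit. The number of arrays limits the precision, and p-values reflect only how these 5 arrays vary, possibly technically. The members and all lists of genes, those of muscle and cell cycle included, were chosen with earlier results of these data known. Named beside the members are up to 5 called genes per pathway list and direction, up to 2 for muscle, cell cycle and double-stranded RNA response lists, and 16 further genes named whatever their value. A called gene of the pathway lists is counted but not reported here. A ranking of genes by likeness to Fas over arrays was computed and is not reported, since 5 arrays are too few. Alternatives covered the use of files and scans, background correction, scaling, filters, the variance model and leaving out arrays or files. A blocked fit on shared replicate numbers was run, and the numbers did not pair the samples.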

Additional observations from a re-analysis of the deposited data

How the results depend on the processing

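Fas kept its sign in all 28 alternatives that tested it, which reuse the same 5 arrays. The groups lay 1.13 apart, so leaving out any 1 array could not change the sign. Its call was not kept in all of them. The call was lost without a filter on dim probes (adjusted p = 0.18) and without any 1 mimic array, and Fas and Trp53 left the test when a probe had to pass the background flag in all files. Of the 10 members, 5 were called with 10 files as separate arrays, 2 with a term for the scan and positions as random blocks, and 0 without a filter on dim probes. With the flag required in all files, 0 of the 8 still tested were called. Without any 1 mimic array 0 were called, and without any 1 file 1 was. The pathway lists held 41, 14 and 0 calls with separate files, with the scan term and with no filter, and 1 to 37 without 1 array or file, 37 being without scrambled array 1. Over all genes, in the same order, the counts were 4512, 1459 and 17, and 47 to 4352 without 1 array or file: 47, 79 and 138 without mimic array 1, 2 or 3, and 4352 without scrambled array 1. Higher calls were 54.4% of all calls, 68.2% with the percentile over all probes, 63.4% with quantile normalisation and 63.1% in the deposited value table, and the percentile over all probes put the median of all genes at 0.11, beside -0.05.

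On the 8 files of replicates 1 to 4, the fit with the replicate number as a block called 1 member, 15 pathway genes and 1951 genes, and the same files with no block 4, 28 and 3190. Same-numbered files of the groups correlated at 0.33, -0.07, -0.32 and 0.02 in their deviations, and 2 of 8 correlated best with their own number.

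Some differences that were not called in the main fit changed sign in alternatives, and the cause was not tested. Bcl2 was -0.078 in scan 1, -0.069 on the 8 files with or without the block and -0.066 with normexp, and Ccng1 was -0.035 in scan 1. Pmaip1 was 0.051 with the percentile over all probes. Without 1 array or file, Bcl2 ran from -0.407 to 0.529, Ccng1 from -0.022 to 0.04, Pmaip1 from -0.239 to 0.023, Bax from -0.45 to 0.046, Gadd45a from -0.003 to 0.551, Gadd45b from -0.208 to 0.597, Gadd45g from -0.001 to 0.1 and Cflar from -0.462 to 0.001. Fas was above background in 7 of the 10 files and Trp53 in 9, which limits what their differences show.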
